A study of Mus musculus with 8 samples.

Results

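The 10 genes described here are AP-1 and immediate early genes. The 7 that encode proteins of the AP-1 family are Fos, Fosb, Fosl2, Jun, Junb, Jund and Atf3. The others are Egr1, Ier2 and Ier5. They were taken by name from the 31053 gene rows of the series, and all 10 had counts in every library and passed the low-count filter in each comparison. The data were UMI counts (unique molecular identifiers, 1 per captured RNA molecule) from 3' single-cell libraries of mouse colonic lamina propria, the tissue under the gut lining, after magnetic enrichment for CD4+ T cells. The 8 libraries fell into 4 groups of 2: untreated wildtype, untreated mutant, wildtype after DSS, and mutant after DSS. All mice were C57BL/6, 10 to 12 weeks old, kept on normal diet and harvested on day 10. Treated mice drank 2% DSS (dextran sulfate sodium, which injures the colonic epithelium) for 7 days followed by 3 days of water alone, and untreated mice had water throughout. The mutants carry an amino acid substitution in RORgt, the transcription factor of Th17 cells, named RORgtS182A in the series title and S203AKI in the sample titles. The labels name no promoter or Cre. A single substitution does not show in 3' counts, so the genotype labels were not checked here.

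AP-1 is a pair of basic leucine zipper proteins. Fos proteins pair with Jun proteins, Jun proteins can also pair with each other, and the pairs bind the DNA sequence TGANTCA. Growth factors, antigen receptor signals, cytokines and cell stress switch many of these genes on within minutes. They act through MAP kinases and the factors SRF, ELK and CREB, and most of the transcripts are short-lived. In T cells AP-1 acts with NFAT at cytokine genes and with BATF and IRF4 in Th17 cells. Enzymatic digestion of tissue, which all 8 libraries went through, is known to switch on the same genes and heat-shock genes.

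RefSeq promoter entries on GRCm38.p6 (mm10) were found for 8 of the 10 members, all but Egr1 and Ier2. The 120 bases before the start site are shown for the genes that the results turn on, written along the gene's own strand. Capitals mark matches to TGACG, the shared core of CREB and ATF sites, on either strand, or to TGACATCA, the related site in Jun.

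Fos, chr12:85473770-85473889, plus strand: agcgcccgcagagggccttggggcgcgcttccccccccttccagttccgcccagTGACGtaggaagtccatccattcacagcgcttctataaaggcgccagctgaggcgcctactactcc

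Junb, chr8:84978749-84978868, minus strand: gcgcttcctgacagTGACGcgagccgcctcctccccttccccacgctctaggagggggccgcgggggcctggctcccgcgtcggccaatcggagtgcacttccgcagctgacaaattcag

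Atf3, chr1:191183334-191183453, minus strand: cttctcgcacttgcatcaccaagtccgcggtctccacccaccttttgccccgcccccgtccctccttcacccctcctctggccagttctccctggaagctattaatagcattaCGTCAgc

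Jun, chr4:95052223-95052342, minus strand: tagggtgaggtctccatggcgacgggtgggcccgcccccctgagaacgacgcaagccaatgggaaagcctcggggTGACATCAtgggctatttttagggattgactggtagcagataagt

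Fosl2, chr5:32136352-32136471, plus strand: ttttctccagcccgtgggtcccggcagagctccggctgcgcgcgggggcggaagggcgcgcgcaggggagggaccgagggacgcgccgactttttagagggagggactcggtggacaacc

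Jund, chr8:70697619-70697738, plus strand: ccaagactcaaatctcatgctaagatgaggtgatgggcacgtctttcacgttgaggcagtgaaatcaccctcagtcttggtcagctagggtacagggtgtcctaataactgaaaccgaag

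TGACG was present in 4 of the 8 member windows (Fos, Fosb, Junb and Atf3) and in 11.66% of all 32851 windows of this length. Its first base lay at -66 in Fos, -60 in Fosb, -106 in Junb and -7 in Atf3, counted from the start site of the promoter entry. The Fosb window, chr7:19310046-19310165 on the minus strand, overlaps the gene span given below, which ends at 19310118. The promoter entry of Fosb thus uses another start site than that span. TGACATCA was present in Jun at -45 and in 2.1% of all windows. The complete site TGACGTCA (1.24% of windows), TGANTCA (3.41%) and the CArG box bound by SRF (0.75%) had no match in the member windows. Bases further upstream than these windows were not searched, and Egr1 and Ier2 had no window. TGACG is contained in TGACGTCA. The windows of Fosl2 and Jund held no match to any of these motifs. A match describes letters only.

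Barcodes with at least 400 genes and under 20% mitochondrial UMIs were kept, 96721 of 100673. They were clustered without the 10 members and the other immediate early and heat-shock genes. The other AP-1 and partner genes and the kinases and factors upstream of AP-1 were left out too. Of these barcodes 59499 fell into 7 T clusters (T barcodes, 5015 to 10040 per library) and 37222 into other clusters (non-T barcodes, 2519 to 5710 per library). Levels are given as CPM, a gene's share of all UMIs of a population in a library on the usual CPM scale. T barcodes had a median of 1949 UMIs and non-T barcodes 4155. A cluster was taken as T where its T cell receptor and CD3 genes summed to at least 50% of the highest cluster's CPM. These genes summed to 2613 to 3855 CPM in T barcodes and to 317 to 517 CPM in non-T barcodes, a gap that follows from this rule. Macrophage- or monocyte-like and fibroblast-like barcodes made up 29.1% and 27.7% of the non-T barcodes, so the libraries held many other cells despite the enrichment. Of the barcode sequences kept, 1.14% occurred in more than 1 library. In such sums, fewer cells with a transcript and less of it per cell cannot be told apart. The series' design text calls the replicates independent. The titles carry animal numbers that are close between 1 wildtype and 1 mutant library at a time, within untreated and within DSS mice; the labels do not say what close numbers share, and the DSS comparisons were repeated with such libraries summed. P-values measure the spread between libraries.

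The first comparison asked how T barcodes differed from the other cells of the same library. In T barcodes 8 members were lower and Fosl2 was higher, by edgeR's quasi-likelihood test with the library as a term. Junb was not called. Over all 14193 genes tested, 86.2% were called, 42.6% higher and 43.6% lower in T barcodes, so a call by itself sets no member apart. The median difference of the members was -0.93 on the log2 scale against -0.01 for all genes.

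Egr1 (ENSMUSG00000038418) encodes a zinc finger factor induced through SRF. It had 51.9 to 97.5 CPM in T barcodes and 780 to 2321 CPM in non-T barcodes over the 8 libraries. The log2 difference was -4.40 ± 0.12 (SE, adjusted p = 4.77e-11), the widest gap among the members. Atf3 (ENSMUSG00000026628, chr1:191170296-191183333), a stress-induced member of the ATF family that often represses its targets, had 8.78 to 99.6 CPM in T barcodes against 165 to 615. Its difference was -3.12 ± 0.19 (adjusted p = 2.25e-08). No library overlapped between the populations for either gene.

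Fos (ENSMUSG00000021250, chr12:85473890-85477274), the founding partner of Jun in AP-1, had 285 to 347 CPM in T barcodes and 853 to 2295 CPM in non-T barcodes, a difference of -2.13 ± 0.13 (adjusted p = 2.54e-08). Jun (ENSMUSG00000052684, chr4:95049036-95052222) had 240 to 574 CPM against 930 to 2400, a difference of -1.79 ± 0.19 (adjusted p = 3.21e-06). Fosb (ENSMUSG00000003545, chr7:19302696-19310118), a second Fos protein, had 242 to 398 CPM against 510 to 1151, a difference of -1.34 ± 0.12 (adjusted p = 6.97e-07). All 3 genes were lower in the T barcodes of each library.

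The gaps were narrower for Jund, Ier2 and Ier5. Jund (ENSMUSG00000071076, chr8:70697739-70700616), the Jun protein that is present in resting cells, stood at 57.1% to 89.8% of the non-T level in the 8 libraries (log2 difference -0.31 ± 0.09, adjusted p = 0.00512). Ier2 (ENSMUSG00000053560, chr8:84661331-84662852), a nuclear protein of the early growth factor response, stood at 64.7% to 87.9% (-0.29 ± 0.06, adjusted p = 0.000745). Ier5 (ENSMUSG00000056708, chr1:155096367-155099636), a related early response gene, stood at 35% to 89.7% (-0.53 ± 0.15, adjusted p = 0.00604). Without the library term the calls of Jund (adjusted p = 0.235) and Ier2 (0.0655) were lost.

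Fosl2 (ENSMUSG00000029135, chr5:32136472-32157840), the Fos protein also called FRA2, went the other way. It had 314 to 582 CPM in T barcodes and 121 to 262 CPM in non-T barcodes, 190% to 334% of the non-T level in the same library (log2 difference 1.37 ± 0.09, adjusted p = 2.71e-08). Junb (ENSMUSG00000052837, chr8:84976909-84978748), a Jun protein needed for Th17 cells, had 1381 to 1885 CPM in T barcodes and 1348 to 1830 CPM in non-T barcodes. It was higher in T barcodes in 5 of 8 libraries (0.18 ± 0.08, adjusted p = 0.0592). Leaving out untreated wildtype replicate 1 or DSS mutant replicate 2 brought Junb to adjusted p = 0.0331 and 0.0348 (higher in T barcodes), while it was not called with all 8 libraries. Among barcodes on the authors' own cell list the sign turned and Junb was called lower in T barcodes (-0.175, adjusted p = 0.0202).

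RNA of lysed cells is captured in every droplet, so the T level was also set beside marker genes of other cells. The fibroblast list stood in T barcodes at 0.297% to 0.905% of its non-T level and the smooth muscle list at 0.447% to 2.8%. The B cell list stood at 2.12% to 5.83%, the plasma cell list at 2.08% to 7.74%, the endothelial list at 6.13% to 18.2% and the macrophage list at 5.89% to 26.5%. Fosl2, Junb, Jund, Ier2 and Ier5 stood above all 6 ranges. Fos (14.6% to 33.4%), Jun (18.5% to 55%) and Fosb (25.8% to 50.9%) stood above the first 4 and overlapped the macrophage range, and Fos also overlapped the endothelial range. Atf3 (5.32% to 16.8%) and Egr1 (3.43% to 6.65%) stood above the fibroblast and smooth muscle ranges and overlapped the other 4. The part of RNA from other cells in their T levels was not tested, nor whether T cells transcribe some of the listed genes.

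**Figure D1:**
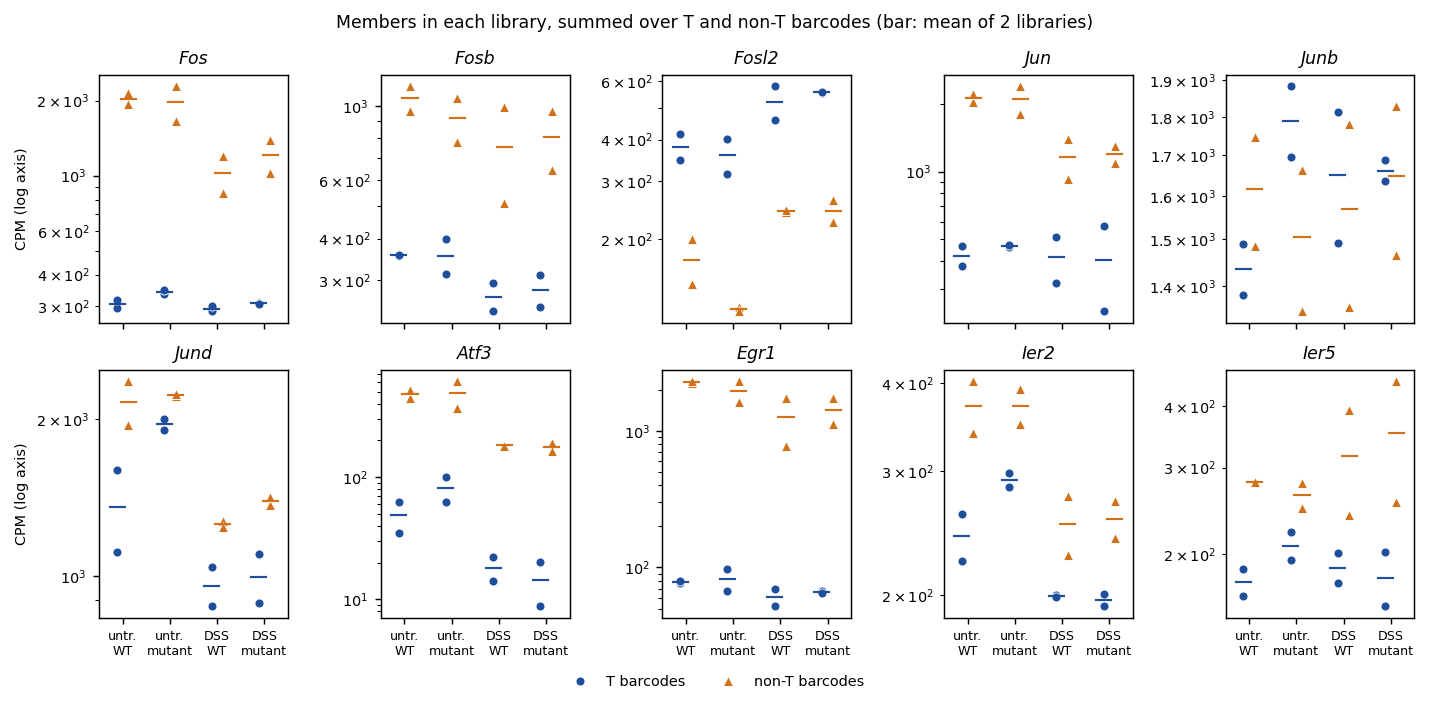
CPM of each member in every library, summed over T barcodes (circles) and non-T barcodes (triangles), by group on a log axis, with a bar at the mean of the 2 libraries. Egr1, Atf3, Fos and Jun sit lower in T barcodes in all 8 libraries, Fosl2 sits higher, and Junb overlaps.

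The non-T barcodes mix several cell classes, so each member was also followed across 12 classes named from marker genes. Classes needed 10 barcodes in a library to count there, and squamous epithelial-like barcodes reached this in 5 libraries only, the 4 DSS libraries and untreated mutant replicate 1. The NK- or innate lymphoid-like class was cluster 3, whose leading genes included Il22, Klrb1b, Tnfsf11, Kit and Il7r. NK cells and innate lymphoid cells were not separated in it, so its levels are not those of NK cells alone. Levels below are means ± SD over all libraries and treatments. Fos formed a step, with glia-, fibroblast-, muscle- and endothelial-like barcodes above the other classes. It was at 7225 ± 3425 CPM in glia-like, 2914 ± 1028 in fibroblast-like, 2909 ± 922 in smooth muscle- or pericyte-like and 2855 ± 704 in endothelial-like barcodes. The fibroblast-like, muscle-like and endothelial-like means lay within their spread of one another. Below the step came squamous epithelial-like barcodes (926 ± 286) and NK- or innate lymphoid-like barcodes (675 ± 98). T barcodes were at 311 ± 21.1 CPM, with dendritic (303 ± 45) and B cell-like barcodes (284 ± 83.9) within their spread and plasma cell-like barcodes lower (211 ± 53.3).

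Egr1 made the sharpest division between the glia-, fibroblast-, muscle- and endothelial-like classes and the blood cell classes. Squamous epithelial-like barcodes lay in between (748 ± 260 CPM). It reached 4668 ± 1862 CPM in glia-like, 4002 ± 892 in fibroblast-like, 3108 ± 883 in endothelial-like and 2258 ± 593 in muscle-like barcodes. In the blood cell classes it ranged from 17.3 ± 4.62 CPM in plasma cell-like to 137 ± 92.8 in neutrophil-like barcodes, with T barcodes at 71.9 ± 13.3. NK- or innate lymphoid-like barcodes combined low Egr1 (54.4 ± 24.7) with high Jun (1605 ± 346) and Fosb (1053 ± 163). Jun in the glia-, fibroblast-, muscle- and endothelial-like classes was 2805 to 5147 CPM, and in T barcodes 428 ± 108.

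Fosl2 and Junb had another order. The highest Fosl2 mean was in NK- or innate lymphoid-like barcodes at 617 ± 138 CPM, then T barcodes at 454 ± 102 and macrophage- or monocyte-like barcodes at 344 ± 138. Plasma cell-like barcodes had 22.6 ± 7.92 CPM. Junb was also highest in NK- or innate lymphoid-like barcodes (2816 ± 511), with endothelial-like (2542 ± 291) and glia-like (2437 ± 745) barcodes within the spread. Plasma cell-like barcodes were lowest at 241 ± 83.7 CPM. Jund ranged from 857 ± 769 CPM in squamous epithelial-like to 2507 ± 646 in glia-like barcodes, and plasma cell-like barcodes had 1334 ± 323 CPM of it. The squamous epithelial-like mean rests on untreated mutant replicate 1 (2232 CPM), the 4 DSS libraries being at 479 to 571 CPM.

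Atf3 was highest in glia-like barcodes (2909 ± 1237 CPM, from 261 barcodes in all), followed by endothelial-like barcodes (853 ± 272). T barcodes had 40.6 ± 31.5 CPM, below dendritic-like barcodes (107 ± 46.8) and within the spread of B cell-like ones (28.9 ± 15.1). Ier2 ranged from 61.5 ± 9.22 CPM in plasma cell-like to 665 ± 205 in endothelial-like barcodes. Ier5 ranged from 94.2 ± 7.56 CPM in plasma cell-like to 489 ± 181 in fibroblast-like barcodes. Among the 5 genes whose log2 CPM correlated best with the members' mean across the 12 classes were Abhd16a, Rhoc, Igfbp7 and Gadd45g (r = 0.949 to 0.973, among 6040 genes with at least 20 CPM). This is a description over 12 points from the same 8 libraries.

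**Figure D2:**
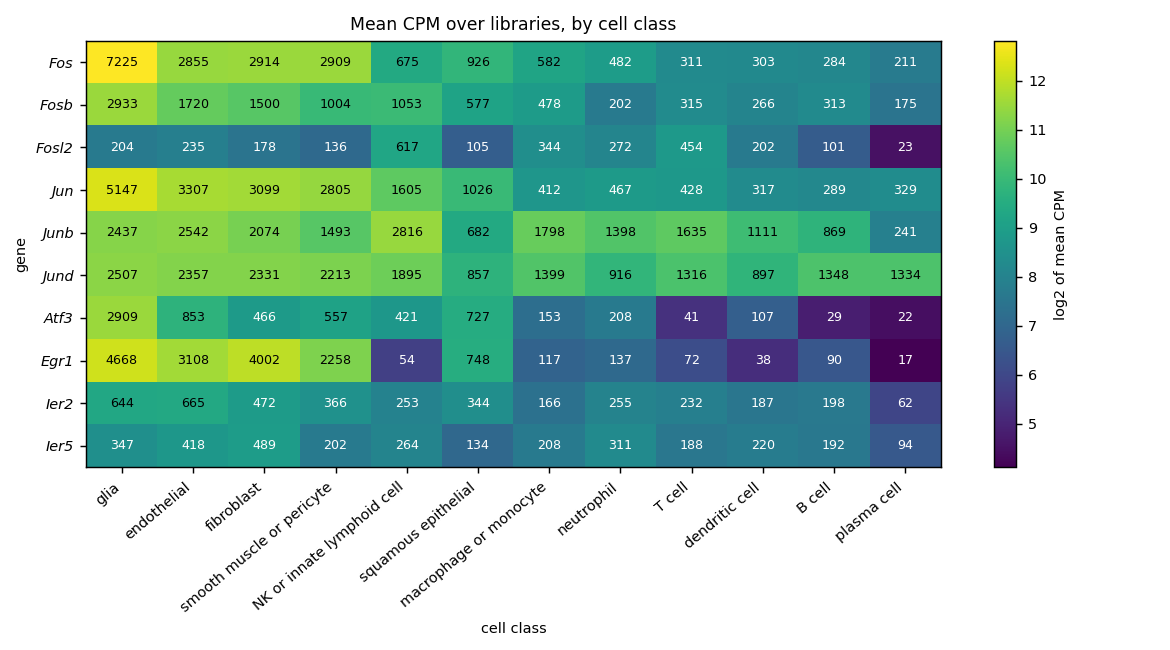
Mean CPM of each member (rows) in each cell class (columns), over libraries with at least 10 barcodes of the class; colour is log2 of the mean. Fos, Jun and Egr1 are highest in glia-, endothelial-, fibroblast- and muscle-like barcodes, while Fosl2 is highest in NK- or innate lymphoid-like and T barcodes.

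Inside the T compartment the members differed less. The clusters were Treg-like (cluster 0), Th17-like (5), naive- or central memory-like (2 and 6), proliferating (7) and clusters 1 and 4, which carry no name here. Cluster 4 stood above the other clusters in the Th1 marker list and nearly as far in the CD8 list (log2 ratios 2.52 and 1.97), and its leading genes were Ccl5, Gzma, Eomes and Nkg7, which cytotoxic cells also express. Jun was highest in the Th17-like cluster at 637 ± 147 CPM, against 257 to 409 CPM in the other T clusters. Fosb was highest in cluster 4 (417 ± 74.8) and the Th17-like cluster (396 ± 53.3). It was lowest in the Treg-like one (213 ± 38.4), with the proliferating cluster within the spread (234 ± 77.7). Fos was between 260 and 375 CPM in the non-proliferating clusters and at 179 ± 42.6 in the proliferating one. The proliferating cluster also had the lowest Fosl2 (219 ± 27.7), Junb (1013 ± 193), Jund (963 ± 313) and Ier5 (128 ± 30.5). For Jund the Treg-like cluster lay within the spread (1229 ± 393).

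Single barcodes were compared after thinning each to 1000 UMIs, which left out 1532 untreated and 2214 DSS T barcodes with fewer UMIs. A Junb UMI was then found in 66.3% to 75.8% of T barcodes of a library, and a Jund UMI in 56.1% to 79.2%. Fosl2 was found in 25.7% to 44.3%, Jun in 19.2% to 35.8% and Fos in 22.2% to 24.5%. Egr1 (4.78% to 9.05%) and Atf3 (0.926% to 7.65%) were found in few. Without thinning the shares were higher, for example 83.1% to 92.1% for Junb and 33.9% to 43% for Fos. At least 1 member was found in 95.7% to 98% of thinned T barcodes, and 5 or more in 13.1% to 19%. No class here lacks these genes by definition, so no share serves as a background for free RNA.

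Members were found together in single T barcodes. Fosb was detected in 31.3% to 40.5% of the thinned T barcodes with a Fos UMI and in 15.4% to 20.9% of those without one. Jun was detected in 26.4% to 41% of those with and 16.9% to 34.2% of those without a Fos UMI, and the share was higher with Fos in all 8 libraries. Fosl2 followed the same order in 8 of 8 libraries with a narrower gap, 28.8% to 48.6% with a Fos UMI and 24.8% to 43% without. Given a Fosl2 UMI, Atf3 was more frequent in 5 of 8 libraries, as was Fosl2 given an Atf3 UMI. Every other member was more frequent with a UMI of its partner in at least 7 of 8 libraries. Pairs of other genes were not counted, T clusters were pooled and doublets were not removed. The values therefore set no pair apart.

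The next comparison set DSS-treated against untreated mice, averaging the DSS differences of both genotypes. In T barcodes 5 members fell and 1 rose. Over all 12660 genes tested, 22.8% were called, 11.9% higher and 10.8% lower. The median log2 difference was -0.32 over the members and 0.01 over all genes. Fosl2 rose, Atf3, Jund, Ier2, Fosb and Egr1 fell, and Fos, Jun, Junb and Ier5 were not called. The mix of T barcodes moved too: the Treg-like cluster was 10.6% to 14.4% of them untreated and 20.7% to 23.9% after DSS. Over all libraries it had the lowest mean Fosb (213 ± 38.4 CPM) and Ier2 (173 ± 40.6 CPM) of the T clusters. The proliferating cluster lay within the spread (234 ± 77.7 and 188 ± 64.8). The part of this shift in the members' differences was not tested. In 5 of the called genes, Fosl2, Atf3, Jund, Ier2 and Fosb, the untreated and DSS libraries did not overlap in CPM. Of all genes 30% did not overlap, 21.4% being higher and 8.62% lower after DSS. With the libraries of close animal numbers summed, which leaves 2 sums against 2, an alternative added after the data were seen, Atf3 (adjusted p = 0.034), Ier2 (0.0422) and Jund (0.0458) were called. Fosb (0.0531), Fosl2 (0.054) and Egr1 (0.0639) were not, and 459 genes were called in all.

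Atf3 changed most. It stood at 34.8 and 62.9 CPM in untreated wildtype, 99.6 and 62.4 in untreated mutant, 22.3 and 14.1 in DSS wildtype and 20.2 and 8.78 in DSS mutant T barcodes. Every DSS library lay below every untreated library. The log2 difference was -2.04 ± 0.30 (SE, edgeR adjusted p = 0.00634), and it stayed called with each library left out in turn (adjusted p at most 0.0427). In the non-T barcodes of the same libraries Atf3 was at 372 to 615 CPM untreated and 165 to 190 CPM after DSS, and the part of RNA from those cells was not tested.

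Jund stood at 1114 and 1598 CPM in untreated wildtype, 1908 and 2001 in untreated mutant, 1042 and 875 in DSS wildtype and 1103 and 889 in DSS mutant T barcodes. The gap between the lowest untreated and the highest DSS library was 1114 against 1103 CPM, while the untreated mutants were far above. The difference was -0.82 ± 0.13 (adjusted p = 0.0078, at most 0.0427 with a library left out).

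Ier2 stood at 224, 261, 298 and 285 CPM in the untreated wildtype and mutant libraries and at 200, 199, 193 and 201 CPM in the DSS libraries. The DSS libraries agreed closely with one another, below all untreated ones. The difference was -0.51 ± 0.07 (adjusted p = 0.0061, at most 0.0392 with a library left out).

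Fosl2 was the member that rose. It stood at 415 and 346 CPM in untreated wildtype, 314 and 403 in untreated mutant, 460 and 582 in DSS wildtype and 552 and 559 in DSS mutant T barcodes, with all DSS libraries above all untreated ones. The difference was 0.45 ± 0.11 (adjusted p = 0.0257). It was no longer called without untreated wildtype replicate 2, untreated mutant replicate 1 or DSS wildtype replicate 2 (adjusted p = 0.113, 0.0803 and 0.0899), or among barcodes on the authors' list (0.0639).

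Fosb stood at 354, 358, 313 and 398 CPM in the untreated and at 242, 294, 310 and 249 CPM in the DSS libraries, and its ranges only just separated. The difference was -0.47 ± 0.11 (adjusted p = 0.0217), lost without either untreated wildtype library, untreated mutant replicate 2 or DSS mutant replicate 2 (adjusted p at most 0.0882). Egr1 stood at 76.3, 80, 97.5 and 67.6 CPM in the untreated and 51.9, 69.4, 67.3 and 64.8 CPM in the DSS libraries, which overlapped. Its difference was -0.43 ± 0.12 (adjusted p = 0.0352). The Egr1 call was lost in 6 of the 8 leave-outs (adjusted p at most 0.127) and without the proliferating cluster (0.052); it held without untreated mutant replicate 2 or DSS wildtype replicate 2.

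The remaining members did not pass. Fos was at 293 to 347 CPM untreated and 285 to 308 CPM after DSS (-0.20 ± 0.07, adjusted p = 0.0681); on the authors' cell list it was called lower (-0.249, adjusted p = 0.0462). Junb was at 1381 to 1885 and 1492 to 1812 CPM (-0.04 ± 0.09, adjusted p = 0.741), and Ier5 at 165 to 222 and 157 to 202 CPM (-0.15 ± 0.11, adjusted p = 0.345). Jun was at 380, 466, 461 and 474 CPM untreated and at 511, 321, 574 and 240 CPM after DSS (-0.20 ± 0.26, adjusted p = 0.599). Both DSS libraries called replicate 1 here were above all untreated ones in Jun and both called replicate 2 were below. The split follows the close animal numbers, which the 2 libraries of each replicate share after DSS. Among the DSS libraries both of replicate 1 were also high in the 6 Th17 genes, 912 and 1607 CPM against 410 and 255 CPM. In the Th17-like cluster Jun was at 838 and 835 CPM in these 2 libraries and at 523 and 415 CPM in the others. Among the untreated libraries, mutant replicate 2 had 1469 CPM of the 6 Th17 genes and the rest had 490 to 670 CPM. Its Jun level of 474 CPM was close to 466 and 461 CPM in 2 of the rest. The part of Th17 cells in the Jun values was not tested. Without DSS mutant replicate 1 the Jun difference was -0.58 (adjusted p = 0.0411), and its sign turned (0.05) without DSS mutant replicate 2.

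Heat-shock and chaperone genes moved along with some members. The 12 genes summed to 9033 and 14041 CPM in untreated wildtype, 23772 and 24037 in untreated mutant, 12424 and 10173 in DSS wildtype and 10801 and 11597 in DSS mutant T barcodes. The 2 untreated mutant libraries were thus highest, as they were for Jund, Ier2 and Fos, of which Fos was not called after DSS. In the DSS comparison 5 of the 12 heat-shock genes fell, beside 10.8% of all genes, and none rose: Hspe1 (-1.08 ± 0.19, adjusted p = 0.00981), Hsp90aa1 (-1.03 ± 0.20, adjusted p = 0.012), Hspd1 (-1.11), Hsp90ab1 (-0.66) and Hspb1 (-2.61), the last 3 at adjusted p = 0.0122 to 0.0169. In wildtype mice alone none of the 12 was called, where 0.103% of all genes were, and their median was 0.12. In mutant mice 8 fell, where 3.89% of all genes did, and the median was -1.61. The part of the heat-shock genes or of tissue handling in the members' differences was not tested.

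**Figure D3:**
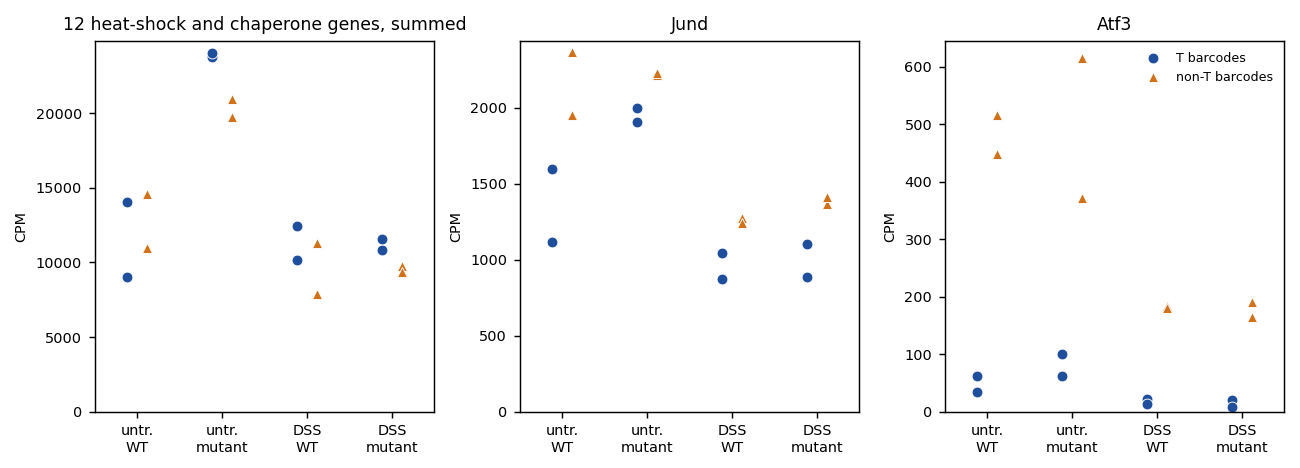
Summed CPM of the 12 heat-shock and chaperone genes, and CPM of Jund and Atf3, in T (circles) and non-T barcodes (triangles) of each library. The untreated mutant libraries are highest in the heat-shock sum, at 23772 and 24037 CPM in T barcodes, and the DSS libraries are lowest in Jund and Atf3.

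The other AP-1 and signalling genes were followed as fixed lists in T barcodes, where 22.8% of all genes were called (11.9% higher, 10.8% lower). Of 20 other AP-1 and partner leucine zipper genes, 2 rose after DSS, among them Creb1 (0.50 ± 0.12, adjusted p = 0.0207), and 3 fell: Mafk, Bach1 and Maff (-0.33, -0.27 and -0.36, adjusted p = 0.0175 to 0.0315). The list's median was 0.09, and its 5 calls are near the share over all genes. The macrophage marker list was at 199 to 429 CPM in untreated and 392 to 706 CPM in DSS T barcodes, and its part in these values was not tested. Of 33 other immediate early and rapid feedback genes, 3 rose and 11 fell, with a median of -0.23. Dusp6, a phosphatase that turns off MAP kinase signalling, fell from 43.6 to 48.3 CPM down to 30.7 to 35.9 CPM (-0.52 ± 0.07, adjusted p = 0.00585). Gadd45g (-0.998 ± 0.15, adjusted p = 0.00639), Gadd45b (-0.80 ± 0.16, adjusted p = 0.0129) and Klf2, a quiescence factor of T cells (-0.54 ± 0.09, adjusted p = 0.00957), also fell. Zfp36, whose protein destabilises cytokine mRNAs, rose from 91.6 to 145 CPM up to 174 to 233 CPM (0.61 ± 0.11, adjusted p = 0.00903).

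Of 21 kinases and factors upstream of AP-1, 6 rose and 1 fell, with a median of 0.10, against 11.9% of all genes higher and 10.8% lower. Srf, which drives Fos and Egr1 through the CArG box, rose from 15.2 to 17.8 CPM up to 23.1 to 31.1 CPM (0.74 ± 0.10, adjusted p = 0.00535). Map2k1, a kinase of the MAP kinase cascade, rose by 0.38 ± 0.09 (adjusted p = 0.0172), Rps6ka3 by 0.40 ± 0.09 (0.0175), Mkl1 by 0.38 ± 0.09 (0.0219) and Mapkapk2 by 0.35 ± 0.09 (0.0288). In the same comparison Fos was not called and Egr1 was called lower, and a link with Srf was not tested.

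Non-T barcodes gave 5 falling members and 1 rising member as well, where 18.7% of 15746 genes were called (10% higher, 8.66% lower). Fos fell from 1937, 2144, 2295 and 1657 CPM to 853, 1200, 1023 and 1396 CPM, with no overlap (-0.82 ± 0.17, adjusted p = 0.0175). Jun fell from 1804 to 2400 CPM down to 930 to 1387 CPM (-0.81 ± 0.16, adjusted p = 0.0159). Atf3 (-1.41 ± 0.14, adjusted p = 0.00196), Jund (-0.71 ± 0.11, adjusted p = 0.00815) and Ier2 (-0.52 ± 0.12, adjusted p = 0.0251) also fell. Fosl2 rose from 121 to 200 CPM up to 226 to 262 CPM (0.76 ± 0.13, adjusted p = 0.0104). Egr1 (-0.62 ± 0.27, adjusted p = 0.14), Fosb (-0.31 ± 0.24, 0.38), Ier5 (0.33 ± 0.22, 0.318) and Junb (0.07 ± 0.14, 0.753) did not pass. DESeq2 called Egr1 lower (adjusted p = 0.0478), as did edgeR without DSS wildtype replicate 2 (-0.991, adjusted p = 0.0253), and over the leave-outs Egr1 ranged from -0.991 to -0.377 and Fosb from -0.612 to -0.095. The Fos and Jun calls were lost without untreated wildtype replicate 2 (adjusted p = 0.0849 and 0.0785), the Fos call also without untreated wildtype replicate 1 or untreated mutant replicate 1, and the Ier2 call in 6 of the 8 leave-outs and on the authors' list (-0.352, adjusted p = 0.118). With the libraries of close animal numbers summed, Atf3 (adjusted p = 0.0124) and Fosl2 (0.0382) were called, and Jund (0.0504), Jun (0.0587), Fos (0.0665) and Ier2 (0.0784) were not. Fibroblast-like barcodes, which are rich in Fos and Jun, were 23.4% to 38.7% of the untreated and 9.8% to 29.2% of the DSS non-T barcodes. Endothelial-like barcodes, also rich in both, were 7.9% to 12.5% and 4.7% to 6.8%. Neutrophil-like barcodes went from 0.3% to 0.7% up to 2.3% to 3.9%, and squamous epithelial-like ones from 0% to 1.4% up to 1.7% to 4%. The part of this mix in the members' differences was not tested.

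In non-T barcodes the same lists were read against 18.7% of all genes called. Of the 20 other AP-1 and partner genes 5 rose after DSS and none fell: Nfil3 (0.52), Nfe2l2, a factor of the oxidative stress response (0.54), Crem (0.70), Mafg (0.42) and Creb1 (0.36), at adjusted p = 0.0147 to 0.0442. Of the 33 other immediate early and feedback genes 5 rose and 6 fell. Klf2 (-1.38 ± 0.13, adjusted p = 0.00135), Gadd45g (-1.01), Gadd45b (-0.83) and Btg2 (-0.69) fell, and Tnfaip3, an inhibitor of NF-kB signalling, rose (0.90). Of the 21 kinases and factors 5 rose, among them Mapkapk2 (0.66), Mkl1 (0.67), Map2k1 (0.45) and Map2k4 (0.36), and Map2k6 fell (-0.93). Of the 12 heat-shock genes 10 fell and none rose, led by Hspa1a (-1.04), Dnajb1 (-0.83), Hsp90aa1 (-1.06), Hspb1 (-0.997) and Hsp90ab1 (-0.58), at adjusted p = 0.0103 to 0.0344.

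Between T and non-T barcodes, where 86.2% of all genes were called, 10 of the 33 immediate early and feedback genes were higher in T barcodes and 19 lower. Ier3 (-4.78), Gadd45g (-2.54) and Rhob (-2.24) were lower, and Cd69, a marker of recent T cell activation (1.82), and Tnfaip3 (1.67) were higher, all at adjusted p of 6.57e-09 or less. Of the 12 heat-shock genes 7 were higher and 5 lower, with Hsp90ab1 (0.74) and Hspd1 (0.73) higher and Bag3 (-1.86), Hspb1 (-4.10) and Hspa1a (-2.19) lower. The other AP-1 and partner genes and the kinases were, like the members, left out of the clustering that set the T barcodes apart. Their differences are given as a description. Among them Maf (2.29), Batf, a partner of Jun proteins in Th17 cells (2.11), and Crem (1.78) were at higher levels in T barcodes, and Jdp2 (-2.96) and Batf2 (-4.36) at lower ones. Map3k1 (1.24), Mapk14 (1.02) and Elk4 (0.85) were higher and Mapk3 (-1.47) lower.

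The DSS difference itself was then compared between T and non-T barcodes. It differed for Fos, by 0.65 ± 0.16 (T minus non-T, adjusted p = 0.0393), and for no other member; over all genes 7.14% were called, 3.19% in this direction and 3.95% in the other. At an unadjusted p under 0.05 edgeR had 1 member, Fos, and 26.2% of all genes, and DESeq2 had 2 members, of which it called Fos. Fosl2 (-0.31 ± 0.14, edgeR adjusted p = 0.193) and Atf3 (-0.66 ± 0.30, edgeR adjusted p = 0.193) came next. The call was lost in 6 of 8 leave-outs (adjusted p at most 0.107, difference 0.53 to 0.71), on the authors' cell list (0.46, adjusted p = 0.0851), with the libraries of close animal numbers summed (0.68, adjusted p = 0.0964) and without the highest doublet scores (0.61, adjusted p = 0.0667). It held without untreated mutant replicate 2 or DSS mutant replicate 2. The mix of non-T barcodes moved as well: macrophage- or monocyte-like barcodes were 15.6% to 34.5% of them untreated and 31.2% to 43.6% after DSS, and its part in the Fos value was not tested.

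**Figure D4:**
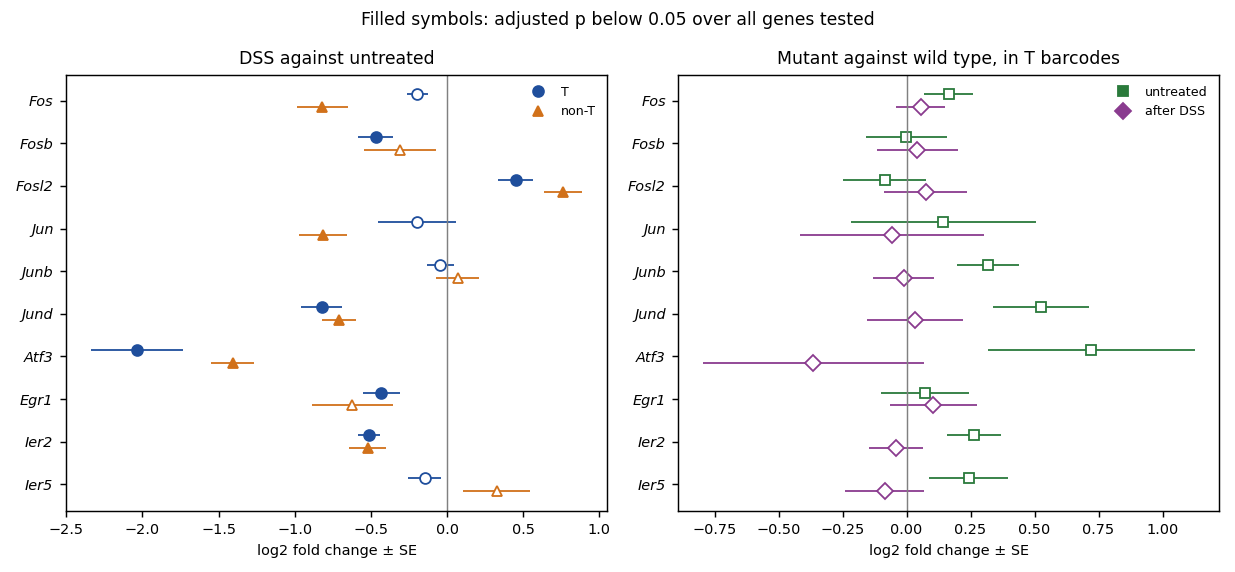
Log2 fold change ± SE of each member for DSS against untreated mice in T and non-T barcodes (left) and for mutant against wildtype T barcodes, untreated and after DSS (right); filled symbols have an adjusted p below 0.05. Atf3 and Jund fell and Fosl2 rose in both populations, and no symbol on the right is filled.

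Each T cluster and each well-filled non-T class was also fitted alone. Fibroblast-like barcodes pool clusters 9, 11, 15 and 17 and endothelial-like barcodes pool clusters 12 and 20, so these 2 class values still hold any shift between their clusters. The other classes are 1 cluster each, and shifts within a cluster were not followed. The macrophage or monocyte marker list was at 3296 to 5358 CPM in untreated and 2661 to 3914 CPM in DSS non-T barcodes, while the class was 15.6% to 34.5% of the untreated and 31.2% to 43.6% of the DSS non-T barcodes, and the part of this in that class's values was not tested. Atf3 fell in 7 of 7 T clusters, by 1.59 to 2.71 on the log2 scale, and in 7 of 8 non-T classes; smooth muscle- or pericyte-like barcodes had -1.004 (adjusted p = 0.0552). Jund fell in 7 of 7 T clusters, by 0.63 to 0.83, and in 6 of 8 non-T classes, with plasma cell-like (-0.47, adjusted p = 0.0746) and muscle-like barcodes (-0.72, adjusted p = 0.118) not called. In T clusters 0, 1, 2, 4, 5, 6 and 7 the share of all genes called was 17.3%, 20.5%, 9.72%, 14.9%, 14.7%, 12.5% and 15.3%. Of all genes 8.27%, 10.4%, 4.41%, 6.81%, 7.47%, 5.89% and 7.02% were higher, and 8.98%, 10.1%, 5.31%, 8.06%, 7.25%, 6.63% and 8.27% lower. In the classes the shares called were 15% in B cell-like (6.99% higher, 7.97% lower), 12.7% in dendritic-like (5.91%, 6.79%), 4.31% in endothelial-like (2.46%, 1.85%) and 19.7% in fibroblast-like barcodes (10.1%, 9.57%). They were 23.6% in macrophage- or monocyte-like (11.6%, 12%), 3.4% in NK- or innate lymphoid-like (1.62%, 1.78%), 6.87% in plasma cell-like (3.2%, 3.66%) and 5.15% in muscle-like barcodes (3.02%, 2.14%). Calls of Atf3 and Jund came from fits that called few genes and fits that called many. All these fits use the same 8 libraries, so they are not independent of one another. With each library left out in turn, 5 of the 7 Atf3 calls and 6 of the 7 Jund calls in T clusters held in all 8 leave-outs. In the non-T classes 4 of 7 Atf3 calls and 2 of 6 Jund calls did.

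Fosl2 was higher after DSS in each of the 15 fits and was called in 11 of them. In T cells these were clusters 1, 2, 4, 5 and 6 (0.46 to 0.76), and not the Treg-like cluster 0 (0.14, adjusted p = 0.351) or the proliferating cluster 7 (0.09, adjusted p = 0.595). The difference between these clusters was not tested. Among non-T classes B cell-like barcodes had the widest difference, from 36.3 to 74.8 CPM untreated up to 120 to 167 CPM after DSS (1.44, adjusted p = 5.54e-05). Macrophage- or monocyte-like barcodes went from 159 to 285 CPM up to 415 to 515 CPM (0.91, adjusted p = 0.00265). Both held in all 8 leave-outs, as did clusters 1 and 4.

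Fos was called lower in 2 classes and higher in 2 others. Fos fell in fibroblast-like barcodes, from 3979, 3917, 3850 and 3741 CPM to 1833, 2038, 1918 and 2038 CPM (-0.92, adjusted p = 0.00103), and in endothelial-like barcodes, from 3311 to 3578 CPM down to 1909 to 2533 CPM (-0.65, adjusted p = 0.00831). Different fibroblast clusters held most of that class in the 2 conditions, clusters 9 and 15 untreated and cluster 11 in 2 of the DSS libraries. Within cluster 9 Fos was at 4269 to 4541 CPM untreated and 1440 to 3513 CPM after DSS, and within cluster 11 at 2165 to 2374 and 1603 to 1832 CPM, both with no overlap. The libraries overlapped in cluster 15 (2715 to 4488 and 611 to 5577 CPM) and in cluster 17 (2630 to 4608 and 2338 to 2679 CPM). Of the endothelial-like clusters, cluster 12 was at 3176 to 4008 and 1427 to 2328 CPM, and cluster 20, led by Ccl21a and Lyve1, overlapped at 2247 to 3578 and 2400 to 3392 CPM. These single clusters were not tested, and clusters 9 and 15 had as few as 20 and 27 barcodes in a library. Fos rose in B cell-like barcodes, from 199 to 236 CPM up to 292 to 459 CPM (0.52, adjusted p = 0.011), and in plasma cell-like barcodes, from 138 to 190 CPM up to 230 to 289 CPM (0.64, adjusted p = 0.00615). Both B lineage classes showed no overlap between untreated and DSS libraries, and the B cell-like call held in 5 of 8 leave-outs.

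Jun fell in macrophage- or monocyte-like (-1.08, adjusted p = 0.00743), fibroblast-like (-0.69, 0.00724) and endothelial-like barcodes (-0.68, 0.00562). In the macrophage- or monocyte-like class the untreated values were 279, 369, 1100 and 474 CPM and the DSS values 296, 222, 295 and 258 CPM, so untreated mutant replicate 1 was far above the rest; the call was lost in 1 of the 8 leave-outs, without untreated wildtype replicate 2 (adjusted p = 0.0536). In fibroblast-like clusters 9, 11, 15 and 17 the untreated and DSS libraries overlapped in Jun, for example at 2338 to 2809 and 1673 to 2545 CPM in cluster 11. They overlapped in endothelial-like cluster 20 and not in cluster 12 (3864 to 4741 and 1881 to 2702 CPM). Junb rose in plasma cell-like (0.92, adjusted p = 0.0022), B cell-like (0.54, 0.00441) and macrophage- or monocyte-like barcodes (0.52, 0.0193), and these calls held in 8, 7 and 4 of 8 leave-outs. All 12 heat-shock genes also fell in macrophage- or monocyte-like barcodes, with a median of -1.41, and their part in the Jun value was not tested.

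Egr1 fell in dendritic-like (-1.06, adjusted p = 0.0322), macrophage- or monocyte-like (-0.86, 0.00345) and endothelial-like barcodes (-0.73, 0.0121) and in T clusters 0 and 7. The dendritic-like call held in 2 of 8 leave-outs. Of the 2 T cluster calls 1 held in all 8 and the other in 5. Ier2 fell in T clusters 0, 4, 5 and 7 and in endothelial-like, fibroblast-like and macrophage- or monocyte-like barcodes, in all 8 leave-outs only in clusters 0 and 7. The calls in clusters 4 and 5 held in 3 and 4 of 8, and those in the 3 classes in 4, 1 and 0 of 8. Fosb fell in T clusters 0, 4, 6 and 7 and in macrophage- or monocyte-like barcodes (-0.46, adjusted p = 0.0287). Its calls held in 7, 3, 1 and 8 of 8 leave-outs in these T clusters and in 2 of 8 in the class. The proliferating T cluster had the most falling members, 9 of 10, where 15.3% of all genes were called (8.27% lower). There Fosb (-0.94, adjusted p = 3.81e-05), Ier2 (-0.91, 8.12e-05), Ier5 (-0.60, 0.00474) and Fos (-0.54, 0.00374) fell, while Fosl2 was the exception. In this cluster the Jun call held in 2 of 8 leave-outs and the Junb call in 6. In the same cluster 11 of 12 heat-shock genes fell, and their part was not tested. Ier5 was called in no other cluster or class.

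**Figure D5:**
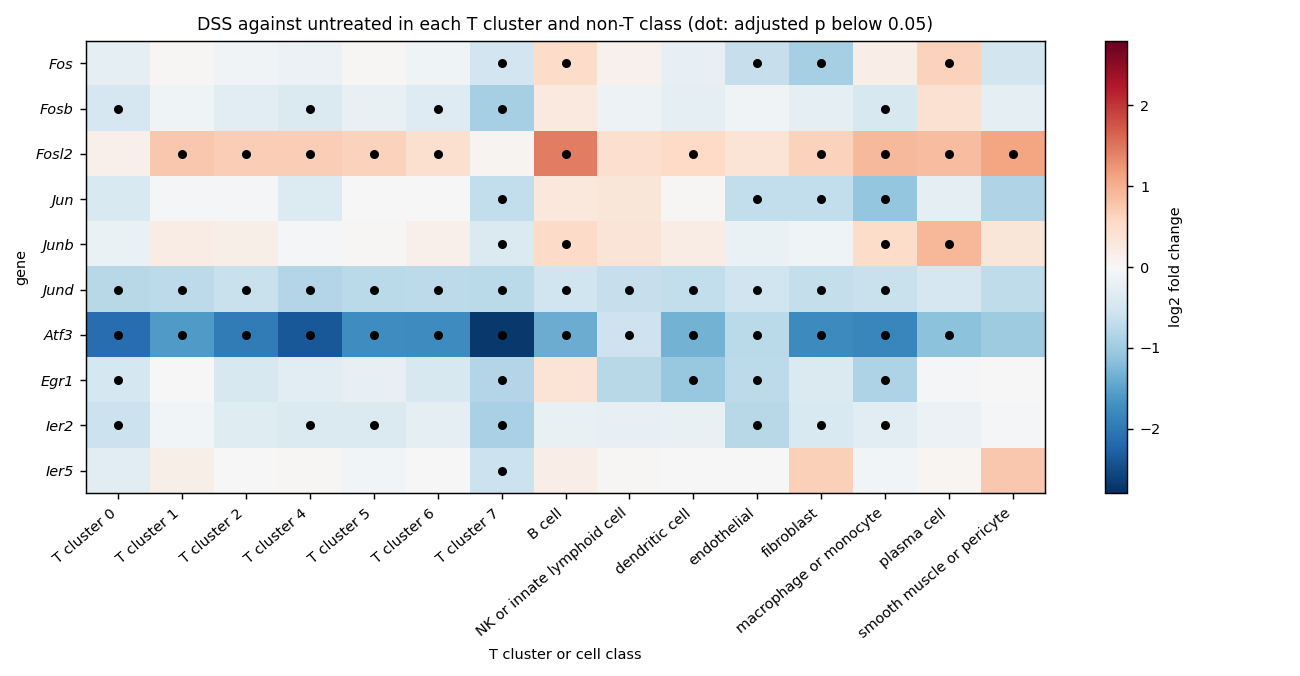
Log2 fold change of each member (rows), DSS against untreated, in the 7 T clusters and 8 non-T classes with at least 50 barcodes in each library; dots mark an adjusted p below 0.05. The Jund and Atf3 rows are negative and the Fosl2 row is positive in every column, whereas the Fos row has calls in both directions.

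The study's design also compares DSS with untreated mice in wildtype alone. With 2 libraries against 2, 0 members were called in T barcodes, where 0.103% of all genes were (0.0711% higher, 0.0316% lower), and 6 members had an unadjusted p under 0.05, as did 20.7% of all genes. DESeq2 called 2 of them, Jund (adjusted p = 0.0241) and Fosb (0.0425), and 3.61% of all genes. EdgeR without the low-count filter called 4 members and 6.34% of all genes. Atf3 differed by -1.49 ± 0.42 (adjusted p = 0.117), Jund by -0.58 ± 0.19 (0.148), Fosb by -0.49 ± 0.16 (0.148), Egr1 by -0.45 ± 0.17 (0.189), Ier2 by -0.36 ± 0.11 (0.124) and Fosl2 by 0.37 ± 0.16 (0.238). Fos (-0.14 ± 0.10), Jun (-0.10 ± 0.36), Junb (0.12 ± 0.12) and Ier5 (0.02 ± 0.16) had adjusted p of 0.44 to 0.964. In the mutant 3 members fell, Atf3 (-2.58 ± 0.43, adjusted p = 0.0232), Jund (-1.07 ± 0.19, 0.0247) and Ier2 (-0.67 ± 0.11, 0.0226), where 8.21% of all genes were called (4.32% higher, 3.89% lower). These 3 calls were all lost without untreated mutant replicate 1, untreated mutant replicate 2 or DSS mutant replicate 2 (adjusted p at most 0.128). Fosl2 (0.53 ± 0.16, adjusted p = 0.0728), Fosb (-0.45 ± 0.16, 0.104), Fos (-0.25 ± 0.10, 0.126), Egr1 (-0.42 ± 0.17, 0.145), Ier5 (-0.31 ± 0.16, 0.21), Junb (-0.21 ± 0.12, 0.282) and Jun (-0.30 ± 0.36, 0.61) did not pass in the mutant by edgeR. DESeq2 called 5 members there, with Fosl2 (0.522, adjusted p = 0.0147) and Fosb (-0.457, adjusted p = 0.0389) in addition, and 10% of all genes. EdgeR without the low-count filter called 6 members and 12.3% of all genes. Without the proliferating T cluster edgeR called Fosl2 in the mutant (0.604, adjusted p = 0.0485).

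In non-T barcodes of the wildtype Atf3 alone was called (-1.40 ± 0.20, adjusted p = 0.0221), where 2.08% of all genes were (1.46% higher, 0.622% lower). Jund (-0.77 ± 0.15, adjusted p = 0.0552) and Fos (-0.98 ± 0.23, 0.0858) came next. In the mutant Atf3 fell (-1.42 ± 0.20, adjusted p = 0.0164) and Fosl2 rose (1.02 ± 0.18, adjusted p = 0.0329), where 3.77% of all genes were called (2.44% higher, 1.33% lower).

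Whether the genotypes differed in this DSS difference was tested as an interaction. Neither edgeR nor DESeq2 called any member in T barcodes, and 0 members had an unadjusted p under 0.05 in edgeR and 1 in DESeq2. Over all genes edgeR called 0%, 485 genes had an unadjusted p below 0.05, and DESeq2 called 5 genes. Atf3 had the widest estimate, -1.09 ± 0.59, followed by Jund at -0.49 ± 0.27, Junb and Ier5 at -0.33 each (SE 0.17 and 0.22) and Ier2 at -0.31 ± 0.15. Jun (-0.20 ± 0.51), Fosl2 (0.16 ± 0.23), Fos (-0.11 ± 0.14), Fosb (0.04 ± 0.23) and Egr1 (0.03 ± 0.24) were closer to 0. All 10 adjusted p were 1. Without the low-count filter edgeR called Atf3 (-1.08, adjusted p = 4.61e-05) and 98 genes in all.

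Mutant and wildtype mice were compared directly in untreated T barcodes, the comparison that asks what the RORgt substitution does at rest. No member was called by edgeR or DESeq2, and 3 had an unadjusted p under 0.05 in each. Over all genes edgeR called 0%, 705 genes had an unadjusted p below 0.05, and DESeq2 called 35 genes. Jund was at 1114 and 1598 CPM in wildtype and 1908 and 2001 CPM in mutant libraries, higher in both mutants (0.53 ± 0.19 SE, edgeR adjusted p = 0.86). Junb was at 1490 and 1381 CPM against 1695 and 1885 CPM (0.32 ± 0.12 SE, edgeR adjusted p = 0.86). Ier2 was at 224 and 261 CPM against 298 and 285 CPM (0.26 ± 0.11 SE, edgeR adjusted p = 0.866). These are also the libraries with the highest heat-shock sums, and the part of that was not tested. Atf3 differed by 0.72 ± 0.40, Ier5 by 0.24 ± 0.16, Fos by 0.17 ± 0.10, Jun by 0.14 ± 0.36, Fosl2 by -0.09 ± 0.16, Egr1 by 0.07 ± 0.17 and Fosb by -0.001 ± 0.16, with adjusted p of 0.942 to 1. Without the low-count filter Jund (0.51, adjusted p = 0.0154) and Atf3 (0.71, adjusted p = 6.22e-05) were called.

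After DSS the same comparison was made between the genotypes. No member was called by either tool or had an unadjusted p under 0.05 in either, and over all genes edgeR called 0%, 146 genes had an unadjusted p below 0.05, and DESeq2 called 0. Atf3 differed by -0.36 ± 0.43, Egr1 by 0.11 ± 0.17, Ier5 by -0.09 ± 0.15, Fosl2 by 0.07 ± 0.16, Jun by -0.06 ± 0.36 and Fos by 0.06 ± 0.10. Ier2 (-0.04 ± 0.11), Fosb (0.04 ± 0.16), Jund (0.03 ± 0.19) and Junb (-0.01 ± 0.12) were nearest 0, and all adjusted p were 1. The standard errors still allow moderate differences in Jun and Atf3. Averaged over treatments, no T cluster or non-T class called a member between genotypes, while 0.0909% of genes were called in NK- or innate lymphoid-like barcodes and 0% elsewhere. In non-T barcodes 0% of genes and no member were called between genotypes, untreated or after DSS; Fosl2 in untreated mice was the sole member with an unadjusted p under 0.05 (-0.54 ± 0.18 SE, edgeR adjusted p = 1).

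Across the 8 libraries, the genes whose log2 CPM followed the members' mean most closely in T barcodes were Insig1, Zfand5, 2310033P09Rik, Cd9 and Mbp (r = 0.975 to 0.99, among 5121 genes with at least 20 CPM). In non-T barcodes they were Peak1, Tgfb2, Abi2, Nav1 and Thbs2 (r = 0.967 to 0.985, among 5911). These are descriptions over 8 points that share treatment groups, and the lists have no gene in common. The mean does not stand for each member. In T barcodes Fosl2 ran against Atf3 (r = -0.933) and Ier2 (r = -0.896), while Atf3 and Ier2 ran together (r = 0.931). Atf3 also had the widest relative range there (8.78 to 99.6 CPM).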

How the data were processed

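The authors deposited raw UMI counts per gene and barcode for 8 single-cell libraries, whole numbers with no normalization, and a list of barcodes. Cell Ranger 3.1.0, Seurat 4.0.1 and mm10 are named in the submitters' processing notes, without their roles. Libraries held 34497509 to 46960005 UMIs in 10563 to 16133 barcodes, of which 27420 in all are on the authors' list, each with a Cd4 UMI.

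Barcodes with at least 400 genes and under 20% mitochondrial UMIs were clustered over all libraries with scanpy 1.11.5 (1754 variable genes, 30 principal components, 15 neighbours, Leiden resolution 1). The members, the other AP-1 and partner genes, the other immediate early genes, the upstream kinases and factors and the heat-shock genes were left out. Clusters were named from marker lists. Counts were summed per library and population and tested with edgeR 4.0.16 (filterByExpr, TMM, quasi-likelihood test, Benjamini-Hochberg adjustment over all genes, threshold 0.05). T and non-T sums of a library were compared with the library as a term. DSS and genotype contrasts came from 1 fit of all 8 libraries, and classes were fitted where each library held 50 barcodes. Scrublet called 2 doublets in all and was not usable, so doublets were not removed; leaving out the 10% of barcodes with the highest scores stands in for it. The fit was tested on simulated data: for the averaged DSS contrast in T barcodes 71.5% of 1.5-fold and 100% of 2-fold changes were recovered, and for DSS in wildtype 22% and 90.5%. For T against non-T barcodes 5.5% of 1.5-fold and 79% of 2-fold changes were recovered. The simulation for T against non-T barcodes used a preset spread, not one estimated from these data, and the T profile for both populations. Those for DSS gave all libraries the same mean profile and a spread that depended on a gene's level alone. They changed no genes of the lowest levels and had no shift of the cell mix. None of these shares therefore measures what the fit detects in the real data.

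The members and gene lists were chosen with earlier results of these data known. All 10 members are named in each main comparison; of each other list the genes called in the averaged DSS and T against non-T comparisons, at most the 5 with the smallest p, are named, except a few that are not reported here. The alternatives tried were DESeq2 1.42.0, RLE factors, no low-count filter, the authors' list, other clusterings, a stricter barcode filter, no library term, close animal numbers as a block, fitting only the groups compared, and leaving out each library. Added after the data were seen were leaving out the highest doublet scores, the proliferating T cluster or each library within classes, and summing libraries with close animal numbers.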

Additional observations from a re-analysis of the deposited data

Results flagged for a closer look

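Fos was the member whose DSS difference was itself called different between T and non-T barcodes. The difference was 0.647 on the log2 scale (T minus non-T, edgeR's quasi-likelihood test with Benjamini-Hochberg adjustment, adjusted p = 0.0393), with -0.20 in T barcodes and -0.82 in non-T barcodes. The call was lost in 6 of 8 leave-outs (adjusted p at most 0.107), on the authors' cell list (0.0851), without the highest doublet scores (0.0667) and with the libraries of close animal numbers summed (0.0964). Within single classes Fos fell in fibroblast-like and endothelial-like barcodes and rose in B cell-like and plasma cell-like barcodes. No explanation was tested.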

How the results depend on the processing

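Counts of called genes or members that moved by over 1.5 times are given by setting, and the cause was not tested. With DESeq2 the count was 457 for DSS in wildtype in T, all genes, 2 for DSS in wildtype in T (members), 5 for DSS in mutant in T (members), 35 for genotype untreated in T, all genes, 5 for genotype by DSS interaction in T, all genes. Without the low-count filter the count was 1309 for DSS in wildtype in T, all genes, 4 for DSS in wildtype in T (members), 2549 for DSS in mutant in T, all genes, 6 for DSS in mutant in T (members), 232 for genotype untreated in T, all genes, 2 for genotype untreated in T (members), 37 for genotype after DSS in T, all genes, 98 for genotype by DSS interaction in T, all genes, 1 for genotype by DSS interaction in T (members). On the authors' list the count was 27 for DSS in wildtype in T, all genes, 568 for DSS in mutant in T, all genes, 1155 for DSS averaged in non-T, all genes, 462 for DSS effect, T against non-T, all genes, 0 for DSS effect, T against non-T (members). With the stricter barcode filter the count was 88 for DSS in wildtype in T, all genes. Without the highest doublet scores the count was 0 for DSS effect, T against non-T (members). Without the proliferating T cluster the count was 24 for DSS in wildtype in T, all genes. With libraries of close animal numbers summed the count was 459 for DSS averaged in T, all genes, 3 for DSS averaged in T (members), 971 for DSS averaged in non-T, all genes, 2 for DSS averaged in non-T (members), 230 for DSS effect, T against non-T, all genes, 0 for DSS effect, T against non-T (members). Several differences near 0 changed sign or came to 0.000 after rounding, and of these Junb on the authors' list was called; the cause was not tested. The value of genotype untreated in T: Fosb became 0.001 (DESeq2), 0.001 (RLE factors), 0.084 (only barcodes on the authors' list), 0.023 (coarser clustering), 0.008 (finer clustering), 0.029 (stricter barcode filter), 0.006 (only the libraries of the groups compared). The value of DSS in wildtype in T: Ier5 became -0.100 (only barcodes on the authors' list), -0.061 (stricter barcode filter). The value of genotype by DSS interaction in T: Fosb became -0.043 (only barcodes on the authors' list). The value of T against non-T barcodes: Junb became -0.175 (only barcodes on the authors' list). The value of DSS effect, T against non-T: Ier2 became -0.132 (only barcodes on the authors' list), -0.049 (stricter barcode filter). The value of genotype after DSS in T: Junb became 0.047 (stricter barcode filter), 0.003 (without the proliferating T cluster). The value of genotype after DSS in T: Ier2 became 0.000 (stricter barcode filter). The value of DSS averaged in T: Junb became 0.015 (without the proliferating T cluster). With each library left out in turn, counts ranged as follows: 3 to 5 for DSS averaged in B cell, 0 to 3 for DSS averaged in NK or innate lymphoid cell, 3 to 6 for DSS averaged in T, 0 to 4 for DSS averaged in T cluster 2, 3 to 6 for DSS averaged in T cluster 4, 2 to 4 for DSS averaged in T cluster 5, 1 to 4 for DSS averaged in T cluster 6, 374 to 2780 for DSS averaged in T, all genes, 1 to 4 for DSS averaged in dendritic cell, 3 to 6 for DSS averaged in endothelial, 3 to 7 for DSS averaged in macrophage or monocyte, 3 to 7 for DSS averaged in non-T, 485 to 2370 for DSS averaged in non-T, all genes, 2 to 5 for DSS averaged in plasma cell, 0 to 5 for DSS averaged in smooth muscle or pericyte, 0 to 1 for DSS effect, T against non-T, 326 to 1085 for DSS effect, T against non-T, all genes, 0 to 3 for DSS in mutant in T, 0 to 962 for DSS in mutant in T, all genes, 0 to 86 for DSS in wildtype in T, all genes, 0 to 11 for genotype untreated in T, all genes. Differences that changed sign, or came to 0.000 after rounding, in a leave-out ranged as follows: -0.577 to 0.052 for DSS averaged in T: Jun, -0.101 to 0.011 for DSS averaged in T: Junb, -0.053 to 0.178 for DSS averaged in non-T: Junb, -0.253 to 0.064 for DSS effect, T against non-T: Fosb, -0.060 to 0.077 for DSS effect, T against non-T: Ier2, -0.205 to 0.045 for DSS effect, T against non-T: Junb, -1.057 to 0.201 for DSS in mutant in T: Jun, -0.114 to 0.136 for DSS in wildtype in T: Ier5, -0.502 to 0.219 for DSS in wildtype in T: Jun, -0.187 to 0.297 for genotype by DSS interaction in T: Egr1, -0.136 to 0.253 for genotype by DSS interaction in T: Fosb, -0.025 to 0.380 for genotype by DSS interaction in T: Fosl2, -0.961 to 0.298 for genotype by DSS interaction in T: Jun, -1.081 to 0.118 for genotype after DSS in T: Atf3, -0.077 to 0.302 for genotype after DSS in T: Egr1, -0.125 to 0.190 for genotype after DSS in T: Fosb, -0.072 to 0.228 for genotype after DSS in T: Fosl2, -0.281 to 0.084 for genotype after DSS in T: Ier5, -0.820 to 0.437 for genotype after DSS in T: Jun, -0.131 to 0.110 for genotype after DSS in T: Junb, -0.133 to 0.181 for genotype after DSS in T: Jund, -0.194 to 0.290 for genotype untreated in T: Egr1, -0.213 to 0.177 for genotype untreated in T: Fosb, -0.307 to 0.098 for genotype untreated in T: Fosl2, 0.000 to 0.293 for genotype untreated in T: Jun. Between genotypes 0 genes and 0 members were called, untreated or after DSS, when close animal numbers were taken as a replicate block. The labels do not state that such numbers pair animals (correlation of deviations 0.208 untreated and 0.368 after DSS). Scrublet gave no usable doublet calls. In single clusters and classes the only alternative run was leaving out libraries.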
